A study of Mus musculus with 23 samples.

Results

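This account concerns the stem cell regulator genes Mecom and Prdm16 and the genes Hoxb2 to Hoxb8 of the Hoxb cluster in sorted mouse bone marrow cells. The 9 genes were chosen by name, with earlier results of these data known: Mecom and Hoxb5 were already seen to be high in the leukaemia that lacks Cebpa. Values from that leukaemia are therefore given as a description, with no test. A gene was read from a probe set whose only annotated symbol is that gene, or from the probe set with the highest mean where there were several. By this rule 8 of the 9 genes were measured, among 19937 genes in all, and 0 of the 8 were at the lower limit of the values (3 on the log2 scale) on any array. A value above that limit does not by itself show expression, and no detection call was made. The mean levels of Hoxb6, Hoxb5 and Hoxb2 exceeded those of only 28.3%, 29.5% and 35.1% of genes. Those of Mecom and Prdm16 exceeded 49.9% and 50.4%. Hoxb8 shares its probe set with Hoxb7 and has no value of its own.

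MECOM is a zinc finger transcription factor needed to maintain haematopoietic stem cells in mice, and its high expression marks an aggressive class of human acute myeloid leukaemia. Its transcripts start at an upstream promoter, which gives a long form with a PR domain (MDS1-EVI1), or at a downstream promoter, which gives the form without it (EVI1). PRDM16 is its closest relative and also acts in stem cells. The Hoxb genes lie side by side and encode homeodomain factors. In blood formation they are used in stem cells and early progenitors and are shut down as cells mature, and MLL fusion proteins act on Hox genes.

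The study profiled 23 Affymetrix arrays of bone marrow cells and asked whether acute myeloid leukaemia needs a differentiation step that depends on C/EBPα, the product of Cebpa. Knockout (KO) donors were Mx.1-Cre+ C/EBPa f/f, in which interferon, induced by 3 injections of poly I:C, switches on Cre and removes Cebpa. Mx.1-Cre- C/EBPa f/f donors with the same injections were the controls. Mx1 is active in many interferon-responsive cells, so deletion is not limited to blood cells. Leukaemic granulocyte-macrophage progenitors (L-GMPs) came from irradiated recipients of KSLs (the Lin- Sca-1+ c-kit+ fraction, enriched for stem cells) carrying an MLL-AF9 retrovirus marked with GFP. Before transplantation the cells had been in culture with cytokines. KO L-GMPs were on 2 arrays of secondary recipients and 1 array of the primary mouse, and all 3 stand for 1 leukaemia, which arose after injection of vectors expressing IL-3 and GM-CSF. Control L-GMPs were on 2 secondary and 2 primary arrays. GFP+ common myeloid progenitors (CMPs, 3 arrays) and GFP+ KSLs (2 arrays) came from KO MLL-AF9 recipients that had not developed leukaemia. Both CMP and KSL arrays exist for the mice of replicates 1 and 2, and the mouse of replicate 3 gave CMPs only. Untransplanted marrow gave KO CMPs (4 arrays), control GMPs (3) and control CMPs (4), taken 5 days after poly I:C. Ages and strains were not given in the labels. Nothing in the labels says which other arrays share a donor, so the p-values speak only of the spread among these samples, which may in part be technical.

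Cebpa had log2 levels of 4.33 to 5.55 on KO arrays and 7.19 to 7.96 on control arrays, so no array went against its genotype label. Granulocyte and monocyte markers (10 of 10 measured, mean log2 level) read 9.72 to 9.94 in KO L-GMPs, 9.13 to 10.04 in control L-GMPs and 10.36 to 10.47 in GMPs. They read 4.99 to 6.15 on the 5 arrays of non-leukaemic MLL-AF9 KO cells. Of these markers, Mpo and Elane, the genes of 2 neutrophil granule enzymes, were below every L-GMP and GMP array there. Mpo was still at 5.76 to 9.42 in the MLL-AF9 KO CMPs and 8.07 to 9.34 in the KSLs. Ly6a, which encodes Sca-1, was not measured by a probe set of its own, and Procr, a stem cell marker, was at 4.72 and 4.96 in the KSLs, against 4.51 to 5.01 in KO and control CMPs. The KSL label therefore could not be checked on Sca-1, and Kit, part of the same gate, was at 9.96 and 10.78 in KSLs, overlapping the MLL-AF9 KO CMPs (9.45 to 10.30). Stem cell markers (10 of 12 measured) averaged 5.58 and 6.00 in the KSLs, below the KO CMPs (6.21 to 6.35) and overlapping the MLL-AF9 KO CMPs (5.63 to 7.12) and the control CMPs (5.62 to 6.05). The lymphoid genes Il7r and Dntt were at 9.09 to 9.78 and 9.19 to 10.91 in the KSLs, against 3.59 to 5.25 and 5.41 to 8.46 in KO and control CMPs. In MLL-AF9 KO CMPs they were at 3.71 to 8.37 and 5.26 to 10.52, so Dntt overlapped the KSLs. Lymphoid markers (9 of 10 measured) averaged 6.08 and 6.91 in the KSLs and 4.66 to 6.18 in MLL-AF9 KO CMPs. These markers do not set the KSL arrays apart as enriched for stem cells, and KSL is used here as the name of the sorted fraction. Correlations between pairs of arrays ran between 0.8613 and 0.9914 (253 pairs). In bulk samples such as these, more cells of a type and more RNA per cell cannot be told apart.

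The windows around annotated start sites were available for 4 of the 9 genes (RefSeq, GRCm38.p6, 250 bases before and 50 after each start). Mecom, both start sites, and Prdm16 are shown because they are paralogs with very different patterns below, and Hoxb4 as the cluster member with the clearest role in stem cell expansion. Capitals in the upstream Mecom window and in the Prdm16 window mark a run of 24 bases that they share, and capitals in the downstream Mecom window mark a C/EBP motif.
Mecom, upstream start, chr3:30509710-30510009, minus strand: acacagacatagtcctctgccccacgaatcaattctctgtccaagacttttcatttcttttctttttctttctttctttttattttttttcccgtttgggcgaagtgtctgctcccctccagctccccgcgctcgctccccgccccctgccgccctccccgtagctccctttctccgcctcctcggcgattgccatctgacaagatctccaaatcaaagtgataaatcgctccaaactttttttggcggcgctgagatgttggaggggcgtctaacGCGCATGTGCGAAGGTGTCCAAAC
Mecom, downstream start, chr3:30013155-30013454, minus strand: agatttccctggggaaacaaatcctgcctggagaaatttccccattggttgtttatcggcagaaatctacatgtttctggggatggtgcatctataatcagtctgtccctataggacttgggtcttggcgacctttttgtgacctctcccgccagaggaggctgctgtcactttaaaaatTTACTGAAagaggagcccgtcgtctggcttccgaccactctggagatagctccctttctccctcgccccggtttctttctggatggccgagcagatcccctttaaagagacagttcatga
Prdm16, chr4:154636824-154637123, minus strand: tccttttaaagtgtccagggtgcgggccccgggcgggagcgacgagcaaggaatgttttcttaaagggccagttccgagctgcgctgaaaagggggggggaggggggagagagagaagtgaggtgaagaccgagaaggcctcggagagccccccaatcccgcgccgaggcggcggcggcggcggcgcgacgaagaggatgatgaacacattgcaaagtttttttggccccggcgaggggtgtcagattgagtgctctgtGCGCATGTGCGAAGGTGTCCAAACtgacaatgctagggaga
Hoxb4, chr11:96318017-96318316, plus strand: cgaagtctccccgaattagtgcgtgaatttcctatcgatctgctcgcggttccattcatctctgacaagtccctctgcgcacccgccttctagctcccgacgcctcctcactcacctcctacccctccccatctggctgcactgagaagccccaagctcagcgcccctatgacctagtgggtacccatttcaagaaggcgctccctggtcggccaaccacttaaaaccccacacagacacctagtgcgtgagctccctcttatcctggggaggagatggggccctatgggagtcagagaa
The shared run, GCGCATGTGCGAAGGTGTCCAAAC, begins 26 bases after the start base in Mecom and 9 after it in Prdm16, and occurs in the windows of these 2 genes only, of 27025 genes and 32851 windows. In the upstream Mecom window the shared run ends on the last base, so 24 bases is the least length of the match. The longest run that the downstream Mecom window shares with Prdm16 has 7 bases. The C/EBP motif searched, TTNCNNAA on either strand, was found 1 time in the downstream Mecom window and 1 time in that of Prdm16. It was found 0 times in the upstream Mecom window and in those of Hoxb4 and Hoxb8, and 40.7% of all windows hold it. General promoter motifs were searched on both strands as well. TATAAA, in 13.6% of windows, was found 2 times for Hoxb8 and in none of the other 4 windows, and CCAAT, in 37.4%, was found 1 time each in the downstream Mecom, Prdm16 and Hoxb8 windows. These matches describe the letters of the windows and say nothing of binding in these cells.

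Mecom had the widest range of the 8 measured genes, 5.95 log2 units over the 23 arrays. Its log2 level (probe set 10497590) was 8.76 and 9.60 in secondary and 8.14 in primary KO L-GMPs. In control L-GMPs it was 3.93 and 3.94 in secondary and 5.36 and 4.27 in primary recipients. The KO L-GMPs averaged 8.84 ± 0.73 (SD, n = 3) and the control L-GMPs 4.37 ± 0.67 (SD, n = 4), a difference of 4.46 or 22-fold. Every KO L-GMP array stood above every control L-GMP array, which chose this gene and is no test. The 3 KO arrays are of 1 leukaemia, so their SD is no spread between leukaemias. Here and in all KO against control L-GMP differences below, genotype, cytokine vectors and the single leukaemia cannot be told apart. The secondary control L-GMPs lay below every array of untransplanted marrow, where Mecom was at 4.13, 4.24, 4.22 and 4.29 in KO CMPs, 4.31, 4.17 and 4.16 in control GMPs and 4.67, 5.11, 4.83 and 4.71 in control CMPs.

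In MLL-AF9 KO cells without leukaemia, Mecom on the same probe set differed more between mice than between the sorted populations of a mouse. CMPs read 3.65, 7.95 and 8.60 in replicates 1, 2 and 3, and KSLs read 4.29 and 8.46 in replicates 1 and 2. The mouse of replicate 1 was thus low in both populations, near the untransplanted marrow, and the mouse of replicate 2 was high in both. The 3 arrays of replicates 2 and 3 stood at 7.95 to 8.60 and overlapped the KO L-GMP arrays, at 8.14 to 9.60. Within a mouse, CMPs were lower than KSLs by 0.65 and 0.52 in replicates 1 and 2.

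A second probe set of Mecom, 10497608, followed the first, with a correlation of 0.96 over the 23 arrays, which share groups and are not independent. It read 6.61 and 6.44 in secondary and 6.50 in primary KO L-GMPs, and 4.42, 4.35, 4.51 and 4.55 in control L-GMPs. The difference was 2.06 or 4.16-fold. In MLL-AF9 KO CMPs it was at 4.04, 5.86 and 6.05 in replicates 1 to 3, and in KSLs at 4.95 and 5.87 in replicates 1 and 2. The same mouse was thus lowest within each population. Its KSL array was, however, above every array of untransplanted marrow (4.23 to 4.71) and of control L-GMPs on this probe set. Within a mouse, CMPs minus KSLs was -0.91 in replicate 1 and -0.01 in replicate 2. Secondary KO L-GMPs exceeded the primary array by 1.04 in the mean on the first probe set, with both secondary arrays above it. On this one the difference was 0.03, with the secondary arrays on either side.

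**Figure D1:**
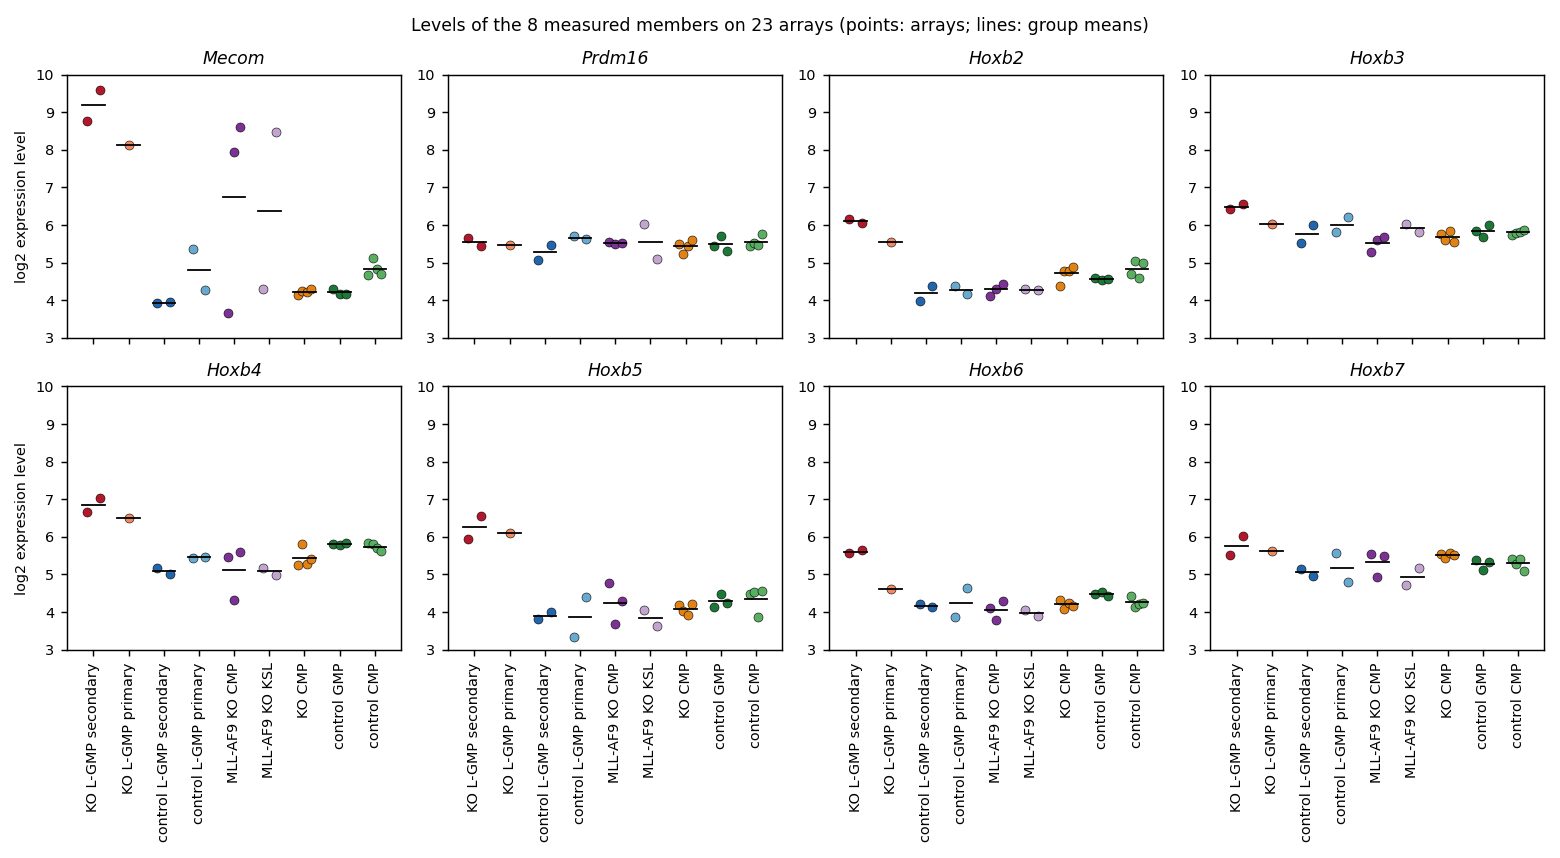
Log2 expression level (vertical axes, from 3 to 10) of Mecom, Prdm16 and Hoxb2 to Hoxb7 on each of the 23 arrays, by group; points are arrays and lines are group means. Mecom is high on the 3 KO L-GMP arrays and on 3 of the 5 arrays of MLL-AF9 KO CMPs and KSLs, Hoxb2, Hoxb4 and Hoxb5 are highest on the 3 KO L-GMP arrays, and Prdm16 stays between 5.08 and 6.02.

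Ordered by group mean, Mecom was highest in secondary KO L-GMPs (9.18), then in primary KO L-GMPs (8.14), MLL-AF9 KO CMPs (6.73 ± 2.69, SD, n = 3) and MLL-AF9 KO KSLs (6.38 ± 2.95, SD, n = 2). The other groups had means between 3.94 and 4.83, in the order control CMPs, primary control L-GMPs, KO CMPs, control GMPs and secondary control L-GMPs. Neighbours in this order overlapped, except that secondary stood above primary KO L-GMPs and control GMPs above secondary control L-GMPs on every array.

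**Figure D2:**
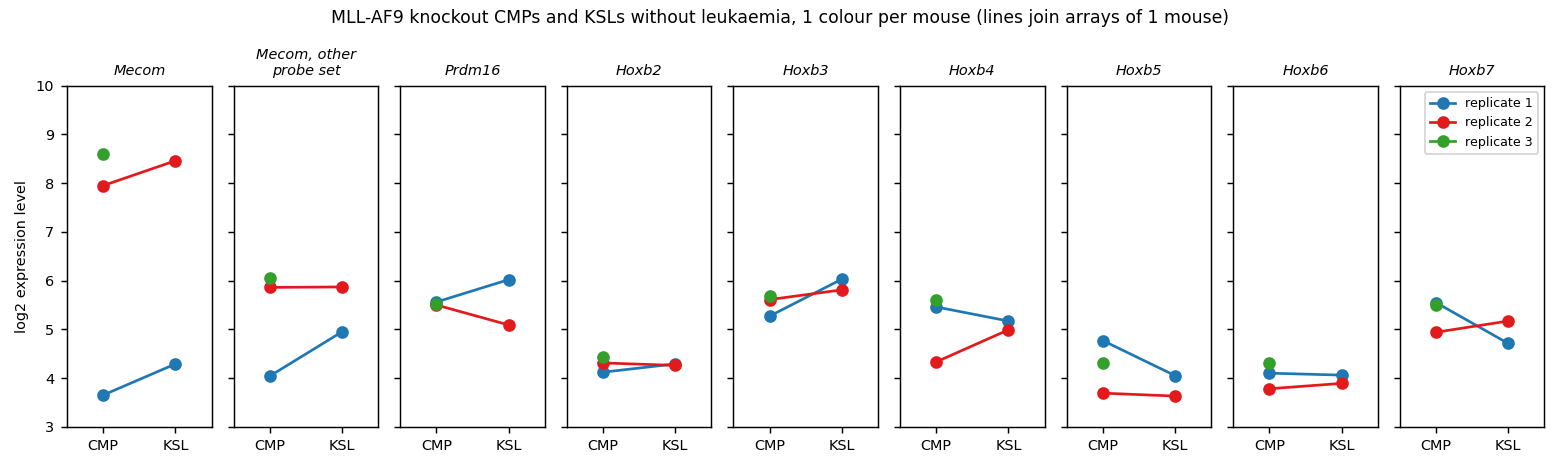
Log2 level of Mecom on both of its probe sets and of the other measured members in GFP+ CMPs (left in each panel) and GFP+ KSLs (right) of KO MLL-AF9 recipients without leukaemia; each colour is 1 mouse, and lines join arrays of the same mouse. On the first probe set, the mouse of replicate 1 has low Mecom in both populations (3.65 and 4.29). The mouse of replicate 2 has high Mecom in both (7.95 and 8.46).

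Some other genes followed the same mice. Meis1, a homeodomain partner of HOX proteins, was at 4.84, 8.76 and 9.79 in CMPs of replicates 1, 2 and 3 and at 6.04 and 8.99 in KSLs of replicates 1 and 2. Hoxa9, a main target of MLL fusions, was at 5.09, 7.46 and 6.93 in these CMPs and at 5.98 and 7.66 in the KSLs. Both were lowest in the mouse of replicate 1, and Hoxa10 (5.49, 6.80 and 6.36 in CMPs, 4.80 and 6.74 in KSLs) ran the same way. So did the other measured Hoxa genes within each population, except Hoxa4 and Hoxa11. Of the further measured genes for HOX partners, Pbx3 and Pknox1 ran this way, and Meis2, Meis3, Pbx2, Pbx4 and Pknox2 did not. Gata2, a stem cell factor and a known target of MECOM, did not: it was at 9.95, 8.14 and 9.94 in CMPs and 9.40 and 7.27 in KSLs, lowest in the mouse of replicate 2. The other measured MECOM target genes, Adgrg1, Itga6, Setbp1 and Erg, were also not lowest in both populations in the mouse of replicate 1.

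Marker lists also differed between these mice. Erythroid markers (9 of 12 measured) averaged 7.42, 8.89 and 8.34 in CMPs of replicates 1, 2 and 3 and 6.65 and 8.49 in KSLs of replicates 1 and 2. Stem cell markers (10 of 12 measured) averaged 5.63, 5.99 and 7.12 in the CMPs and 5.58 and 6.00 in the KSLs. Both lists were thus lowest within each population in the mouse with low Mecom. Megakaryocyte markers (7 of 10) averaged 6.50, 6.33 and 8.59 in the CMPs and 6.15 and 6.40 in the KSLs, and lymphoid markers (9 of 10) 4.79, 6.18 and 4.66 in the CMPs and 6.08 and 6.91 in the KSLs. Granulocyte and monocyte markers (10 of 10) averaged 4.99, 5.70 and 5.27 in the CMPs and 5.58 and 6.15 in the KSLs, lowest within each population in the mouse of replicate 1. Sort gate markers (4 of 5) averaged 7.73, 7.19 and 6.97 in the CMPs and 8.84 and 7.49 in the KSLs, highest in that mouse. The part of cell composition, and of the share of cells that carried an active MLL-AF9 virus, in the level of Mecom was not tested.

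Prdm16, the closest relative of Mecom, stayed between 5.08 and 6.02 on all 23 arrays. It was at 5.65 and 5.44 in secondary and 5.46 in primary KO L-GMPs, and at 5.08, 5.47, 5.71 and 5.62 in control L-GMPs. The difference of the means was 0.05, and the arrays overlapped. In the mouse of replicate 1 Prdm16 was at 5.56 in CMPs and 6.02 in KSLs, against 5.50 and 5.09 in the mouse of replicate 2. Its correlation with Mecom over the 23 arrays was -0.11.

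Within the Hoxb cluster, Hoxb5, which in mice marks long-term stem cells, differed most. It was at 5.95 and 6.56 in secondary and 6.11 in primary KO L-GMPs. In control L-GMPs it was at 3.81 and 4.00 in secondary and 3.34 and 4.39 in primary recipients. The means were 6.21 ± 0.32 (SD, n = 3) in KO and 3.89 ± 0.44 (SD, n = 4) in control L-GMPs, a difference of 2.32 or 5-fold. The other 16 arrays of the series read between 3.63 and 4.77, below every KO L-GMP array.

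Hoxb2 and Hoxb4 had the same pattern with smaller differences. Hoxb2 read 6.17, 6.04 and 5.56 in secondary and primary KO L-GMPs and 3.99, 4.38, 4.37 and 4.16 in control L-GMPs, a difference of 1.70 or 3.25-fold. Hoxb4, which expands stem cells when overexpressed, read 6.65, 7.02 and 6.50 in KO L-GMPs and 5.16, 5.00, 5.45 and 5.46 in control L-GMPs, a difference of 1.46 or 2.74-fold. For both genes every KO L-GMP array stood above the other 20 arrays of the series.

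Hoxb6 and Hoxb3 overlapped between the genotypes. Hoxb6 was at 5.56 and 5.64 in secondary KO L-GMPs but at 4.61 in the primary, inside the range of control L-GMPs (4.22, 4.13, 3.86 and 4.64), with a difference of means of 1.06. Hoxb3 was at 6.42, 6.56 and 6.02 in KO L-GMPs and 5.53, 6.00, 5.81 and 6.21 in control L-GMPs, a difference of 0.44. For both the secondary KO arrays were above every control L-GMP array and the primary was not.

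Hoxb7 was at 5.53, 6.01 and 5.63 in KO L-GMPs and 5.15, 4.96, 5.56 and 4.80 in control L-GMPs, a difference of 0.61 with overlap. The probe set that Hoxb7 and Hoxb8 share ran between 4.58 and 5.22 on all arrays and differed by 0.09 between KO and control L-GMPs. At the edges of the cluster, the differences between KO and control L-GMPs were -0.31 for Hoxb13, 0.06 for Hoxb9 and -0.12 for Hoxb1. The Hoxb13 arrays did not overlap. Mir10a, a microRNA gene of the cluster, was listed at the lower limit of 3.00 on every array, and Mir196a-1 differed by -0.07.

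**Figure D3:**
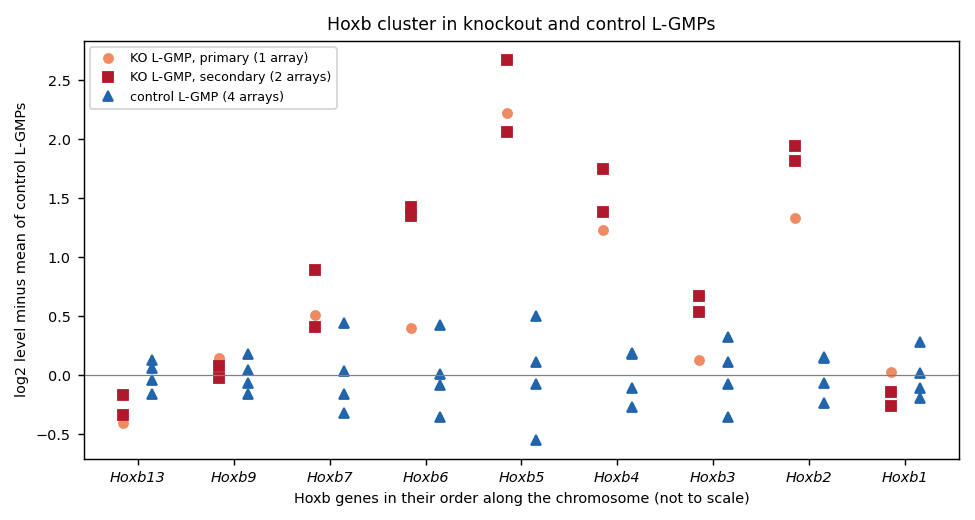
Log2 level minus the mean of the 4 control L-GMP arrays (vertical axis) for 9 genes of the Hoxb cluster in their order along the chromosome (horizontal axis, not to scale). Squares and circles are KO L-GMP arrays of secondary and primary recipients and triangles are control L-GMP arrays. Hoxb5, Hoxb2 and Hoxb4 stand above the controls on all 3 KO arrays, and Hoxb9 and Hoxb1 overlap the controls.

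Counted over the 8 measured genes, 4 were higher in KO than in control L-GMPs with no overlap of arrays, namely Mecom, Hoxb5, Hoxb2 and Hoxb4. Of all genes, 7.15% were higher with no overlap. The median difference of the 8 genes was 1.26, against 0.00 for all genes. The genes were named in part for this contrast, so the count only describes it. The gene just inside the group of 4 by size was Hoxb4 (1.46) and the one just outside was Hoxb6 (1.06).

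The KO L-GMP arrays can also be set beside the other KO groups, in comparisons that share those 3 arrays. Against the 5 arrays of non-leukaemic MLL-AF9 KO cells, 4 of 8 genes were higher with no overlap (6.61% of all genes): Hoxb5 by 2.12, Hoxb2 by 1.64, Hoxb4 by 1.61 and Hoxb6 by 1.25. Mecom averaged 8.84 ± 0.73 (SD, n = 3) in KO L-GMPs and 6.59 ± 2.42 (SD, n = 5) in the non-leukaemic cells, and overlapped. Against KO CMPs, 6 of 8 were higher with no overlap (18.6% of all genes), Mecom by 4.61, Hoxb5 by 2.11, Hoxb4 by 1.28, Hoxb2 by 1.21, Hoxb6 by 1.07 and Hoxb3 by 0.65. In that comparison sorted population, culture, transplantation, virus, cytokine vectors and leukaemia cannot be told apart. Against the non-leukaemic MLL-AF9 KO cells, sorted population, cytokine vectors and leukaemia cannot be told apart.

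Control L-GMPs were set beside the same groups. Against the non-leukaemic MLL-AF9 KO cells, 0 of 8 genes were without overlap (7.73% of all genes), and Mecom averaged 4.37 ± 0.67 (SD, n = 4) in control L-GMPs and 6.59 ± 2.42 (SD, n = 5) in those cells. Without the mouse of replicate 1, Mecom was lower in control L-GMPs with no overlap. Genotype, sorted population and leukaemia cannot be told apart in this comparison. Against control GMPs, 2 of 8 genes were lower with no overlap (17.7% of all genes), Hoxb4 by -0.54 and Hoxb2 by -0.34. Mecom, at 3.93 to 5.36 in control L-GMPs and 4.16 to 4.31 in GMPs, overlapped. Between these groups culture, transplantation, virus and leukaemia cannot be told apart.

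Related genes, listed by family and not by how they moved, were set beside the members in the contrast of KO with control L-GMPs. There 7.15% of all genes were higher with no overlap, and 13.9% were without overlap in either direction. Of 10 measured Hoxa genes 3 were higher with no overlap, Hoxa5 by 0.83, Hoxa2 by 0.81 and Hoxa6 by 0.55. Hoxa9 was at 7.73 ± 0.29 (SD, n = 3) in KO and 7.86 ± 0.15 (SD, n = 4) in control L-GMPs and overlapped. Of 8 measured TALE cofactors, which bind DNA with HOX proteins, Meis1 was higher by 1.35 and Pknox1 by 0.77. Of 9 Hoxc and 9 Hoxd genes, Hoxc13 was lower by -0.38, and Hoxd9 and Hoxd8 were higher by 0.28 and 0.10. Among 11 other PRDM genes, Prdm6 was higher by 0.26.

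Regulators and targets were mostly within the spread too. None of 7 measured MECOM corepressor partners was without overlap in this contrast (0 higher, 0 lower). Of 5 measured MECOM target genes, Itga6, an integrin of stem cells, was higher by 0.98, while Gata2 was at 7.41 ± 0.56 (SD, n = 3) in KO and 7.39 ± 0.80 (SD, n = 4) in control L-GMPs. Of 11 genes for MLL complexes and CDX factors, which act on Hox genes, Aff4 was higher by 0.62 and Men1 by 0.47, and Mllt3, the mouse AF9 gene, was lower by -0.80. Of all genes 13.9% were without overlap in either direction.

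Markers of other cells were set beside the KO L-GMP values. Stem cell markers averaged 4.96 to 5.11 in KO and 4.85 to 5.46 in control L-GMPs. Of 10 measured, 1 was without overlap (13.9% of all genes were), namely Tek, lower by -0.18. Erythroid markers averaged 5.89 to 5.93 in KO and 5.45 to 5.90 in control L-GMPs, megakaryocyte markers 5.29 to 5.47 and 5.15 to 5.51, and lymphoid markers 4.75 to 4.78 and 4.76 to 5.71. Single markers without overlap were Car2, a carbonic anhydrase (higher by 4.22), Car1 (lower by -1.42), Gp9 (higher by 0.69) and Cd79b (higher by 0.48). Their part in the levels of the Mecom and Hoxb genes was not tested.

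Comparisons that use no KO L-GMP array were tested with limma over all 19937 genes, with 95% intervals. In 5 of them 0 of the 8 measured genes passed an adjusted p of 0.05.

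The first compared KO with control CMPs, in which 4.91% of all genes changed and 0 of 8 members did. At an unadjusted limma p below 0.05 there were 15.4% of all genes and 0 of 8 members. Mecom was at 4.22 ± 0.07 in KO CMPs and 4.83 ± 0.20 in control CMPs (SD, n = 4 each). Every KO array was below every control array, a difference of -0.61 ± 0.88 (SE, 95% interval -2.48 to 1.26, limma adjusted p = 0.923). The SE comes from 1 fit to all arrays, in which the mice without leukaemia spread Mecom widely. Fitted on the KO and control CMPs alone, the same difference had an SE of 0.10 and a limma adjusted p of 0.00812, and on untransplanted marrow alone a limma adjusted p of 0.00234. On this probe set Mecom was thus called lower in KO CMPs in the fits without transplanted cells, and not called in the fit to all arrays. The other probe set of Mecom overlapped, at 4.33 ± 0.10 in KO CMPs and 4.48 ± 0.17 in control CMPs (SD, n = 4 each), a difference of -0.15. Over all genes the 25th percentile of the mean level was 4.199, near the first probe set in KO CMPs and in control GMPs (mean 4.21). Whether such levels stand above background was not tested.

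No Hoxb gene was called in KO CMPs. The intervals of the 6 Hoxb genes lay between -0.79 and 0.58. Hoxb4 was at 5.44 ± 0.27 in KO and 5.74 ± 0.10 in control CMPs (SD, n = 4 each; -0.30 ± 0.21 SE, limma adjusted p = 0.615). Hoxb7 was higher in KO CMPs by 0.22, with no overlap between arrays but a limma adjusted p of 0.702. No overlap held for 21.1% of all genes here, and for 2 of the 8 members.

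In the same comparison 0 of 10 Hoxa genes and 0 of 8 TALE cofactors changed, with 1 gene of each list at an unadjusted limma p below 0.05. Smad3, a MECOM partner, rose by 0.59 ± 0.16 (limma adjusted p = 0.038), and Aff4 rose by 0.91 ± 0.23 (limma adjusted p = 0.0308). Of 10 measured stem cell markers 2 rose, Angpt1 by 1.47 and Mycn by 1.22, and 8 did not pass. Of 10 granulocyte and monocyte markers 9 fell. Cebpa itself was at 5.31 ± 0.27 in KO and 7.54 ± 0.27 in control CMPs (SD, n = 4 each).

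Control GMPs against control CMPs, the step at which C/EBPα acts, called 1.05% of all genes and 0 of 8 members (7.87% and 0 at an unadjusted limma p below 0.05). Mecom was at 4.21 ± 0.08 (SD, n = 3) in GMPs and 4.83 ± 0.20 (SD, n = 4) in CMPs, with no overlap (16.3% of all genes, and 2 of 8 members), a difference of -0.62 ± 0.95 (SE, limma adjusted p = 1). With the compared groups alone the limma adjusted p was 0.0498, and with untransplanted marrow alone 0.00838. On the other probe set of Mecom the arrays overlapped, with a difference of -0.07. Hoxb2 was lower by -0.27 ± 0.14 (SE, limma adjusted p = 0.702), and Hoxb6 higher by 0.23 with no overlap and a limma adjusted p of 0.903. Of 5 measured MECOM target genes 1 fell, Adgrg1, also known as GPR56, by 1.80 ± 0.41 (limma adjusted p = 0.0461). Of 10 stem cell markers 2 fell, Angpt1 and Tek, a ligand and its receptor, by 2.21 and 1.00. In these cells 4 of 9 erythroid markers and 1 of 7 megakaryocyte markers, Pf4, fell as well.

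MLL-AF9 KO CMPs against KSLs, both without leukaemia, called 3.32% of all genes and 0 of 8 members (20.2% and 1 at an unadjusted limma p below 0.05). For Mecom the difference was 0.35 ± 1.14 (SE, limma adjusted p = 0.912), and with the mouse as a replicate block -0.58 ± 0.29 (limma adjusted p = 0.274), since CMPs were below KSLs in both mice that gave both. Hoxb3 was lower in CMPs by -0.40 ± 0.16 (SE, limma adjusted p = 0.191), and lower within both mice, by 0.76 and 0.20. For Hoxb4, Hoxb7 and Prdm16 the mice of replicates 1 and 2 went opposite ways: Hoxb4 by 0.29 and -0.66, Hoxb7 by 0.84 and -0.22, and Prdm16 by -0.46 and 0.42.

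MLL-AF9 KO CMPs against KO CMPs asked what the virus and transplant bring to KO cells of the same gate; virus, culture, transplant and experiment cannot be told apart. Of all genes 4.88% were called, and 0 of 8 members (19.4% and 2 at an unadjusted limma p below 0.05, Mecom and Hoxb2). Mecom was at 3.65, 7.95 and 8.60 in MLL-AF9 KO CMPs and 4.13 to 4.29 in KO CMPs, a difference of 2.51 ± 0.95 (SE, 95% interval 0.49 to 4.53, limma adjusted p = 0.151). Without the replicate 1 array it was 4.05 ± 0.72 (limma adjusted p = 0.00823), and without both arrays of that mouse 4.05 ± 0.27 (limma adjusted p = 8.26e-06). The call thus depends on 1 mouse, which was below every KO CMP array. Hoxb2 was at 4.29 ± 0.16 (SD, n = 3) in MLL-AF9 KO CMPs and 4.71 ± 0.22 (SD, n = 4) in KO CMPs (-0.43 ± 0.14 SE, limma adjusted p = 0.0863), and without KO CMP replicate 1 the limma adjusted p was 0.0409.

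In that comparison Psip1, a cofactor that tethers MLL to chromatin, fell by 0.85 ± 0.18 (limma adjusted p = 0.0156). Of 10 measured stem cell markers 1 rose, Mycn by 1.06, and the median change of the list was -0.09. Of 4 measured sort gate markers 2 fell, and of 10 granulocyte and monocyte markers 4 fell. Cd34 fell by 1.83 and Fcgr3 fell by 2.48, while Mpo fell by 3.97 and Csf3r fell by 1.57. Meis1 was at 7.80 ± 2.61 (SD, n = 3) in MLL-AF9 KO CMPs and 8.82 ± 0.20 (SD, n = 4) in KO CMPs, and did not pass (limma adjusted p = 0.544).

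Secondary against primary control L-GMPs, 2 arrays each, called 7.7% of all genes and 0 of 8 members (22.1% and 0 at an unadjusted limma p below 0.05). Mecom was at 3.93 and 3.94 in secondary and 5.36 and 4.27 in primary recipients (-0.88 ± 1.25 SE, limma adjusted p = 0.759). Mecom, Prdm16 and Hoxb4 were lower in secondary recipients on every array, which held for 22.6% of all genes. Adgrg1 fell by 2.34 ± 0.53 (limma adjusted p = 0.0151), and Kmt2a, the mouse MLL gene, by 1.01. The TALE genes Meis2 and Pbx2 fell by 0.65 and 0.59, and 1 of 10 stem cell markers, Angpt1, by 2.92.

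**Figure D4:**
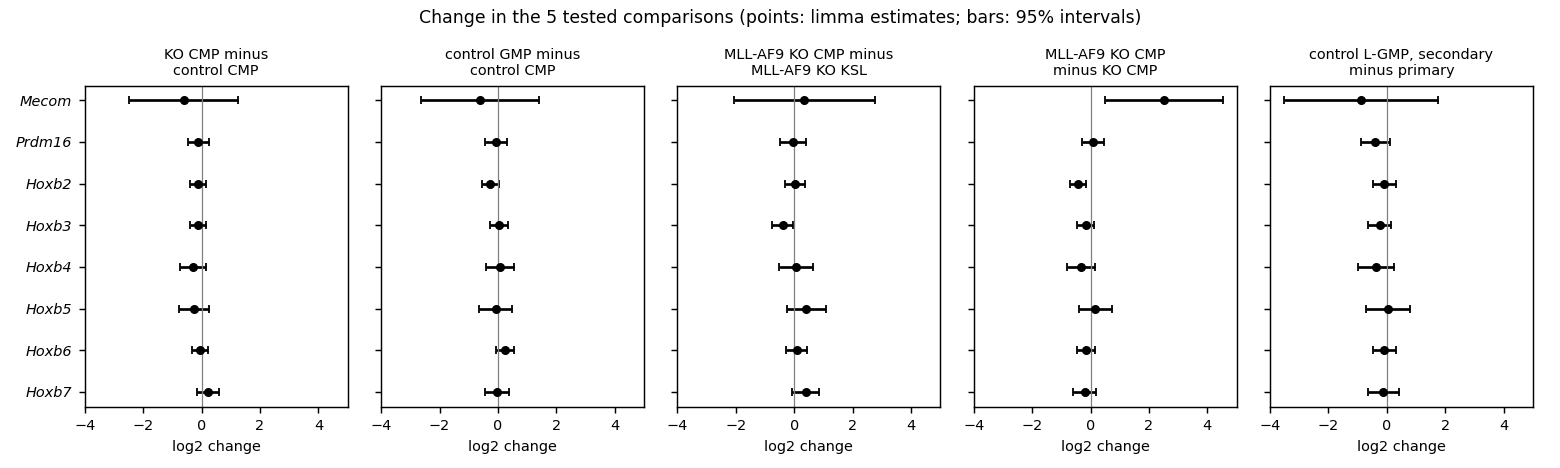
Log2 change (horizontal axis) of the 8 measured members in the 5 tested comparisons, with limma estimates as points and 95% intervals as bars. The interval of Mecom is the widest in each panel, and 0 of 8 members pass an adjusted p of 0.05 in any of them.

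Correlations between the Hoxb genes covered a wide range. Over the 23 arrays, the highest were 0.85 for Hoxb5 with Hoxb6, 0.84 for Hoxb5 with Hoxb2 and with Hoxb4, and for Hoxb4 with Hoxb6, and 0.83 for Hoxb2 with Hoxb4. Hoxb7 was at 0.10 with Hoxb3, 0.45 with Hoxb6, 0.50 with Hoxb5, 0.58 with Hoxb2 and 0.64 with Hoxb4. Hoxb3 was at 0.58 with Hoxb4, 0.59 with Hoxb5, 0.64 with Hoxb2 and 0.75 with Hoxb6. For Mecom the values with Hoxb genes lay between 0.35 (Hoxb7) and 0.56 (Hoxb2), with 0.52 for Hoxb5. These values are descriptions, because the arrays fall into groups, and the 3 KO L-GMP arrays are high for Mecom, Hoxb2, Hoxb4 and Hoxb5 together. The plot of Mecom against Hoxb5 shows where both part: the arrays of the mice of replicates 2 and 3 have high Mecom (7.95 to 8.60) with Hoxb5 at 3.63 to 4.30, below every KO L-GMP array.

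**Figure D5:**
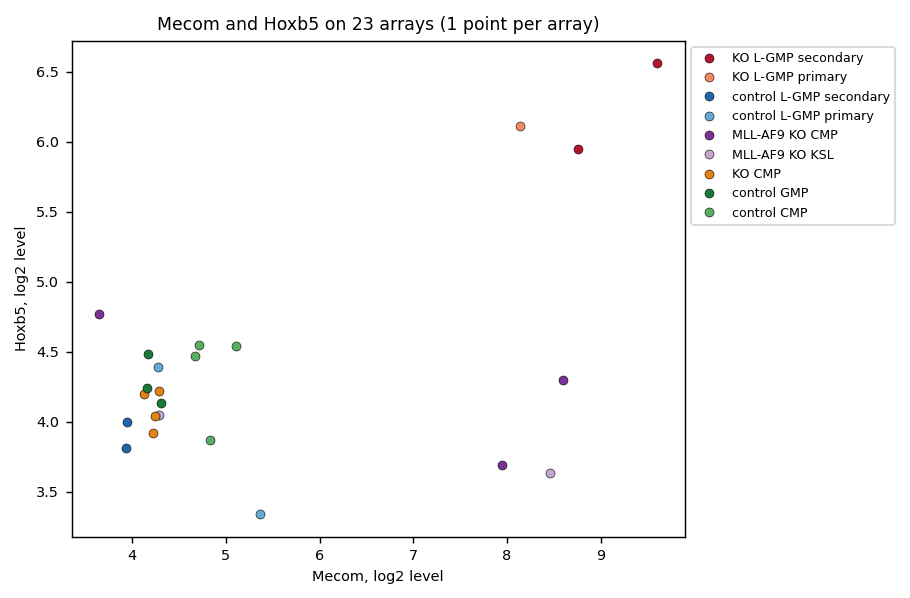
Log2 level of Mecom (horizontal axis) and Hoxb5 (vertical axis), 1 point per array, coloured by group. The 3 KO L-GMP arrays are high for both, and 3 arrays of MLL-AF9 KO CMPs and KSLs without leukaemia are high for Mecom only.

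A search of 15914 genes for the group means most like those of Mecom over the 9 groups gave Mbnl1 (r = 0.982), an RNA splicing factor, Fam169a (0.969), Ttll6 (0.962) and Tmem266 (0.941). Over the 23 single arrays the values were 0.936 for Mbnl1 and 0.825 for Fam169a, but 0.600 for Tmem266 and 0.091 for Ttll6. Mbnl1 was at 11.77 and 11.68 in secondary and 11.37 in primary KO L-GMPs, and at 10.55 to 10.88 in control L-GMPs. In MLL-AF9 KO CMPs of replicates 1, 2 and 3 it was at 10.80, 11.27 and 11.30, and in KSLs of replicates 1 and 2 at 10.66 and 11.67, so it was lower in the mouse with low Mecom. Fam169a was high in KO L-GMPs (6.69 to 7.13) and in the mouse of replicate 2 (7.04 in CMPs and 6.85 in KSLs), and low in the mouse of replicate 3 (3.94), where Mecom was high.

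The same search gave Hoxb2 (0.961), Hvcn1 (0.960), Mansc1 (0.954) and Il31ra (0.953) for Hoxb4, so a neighbour in the cluster came first. For Hoxb5 it gave Pcdhb17 (0.984), Vcpkmt (0.980), Rhoq (0.975) and Psma1 (0.972). For Prdm16 it gave Taz (0.950), H1f8 (0.941), Traf2 (0.918) and Zfp809 (0.908), which over single arrays had correlations of 0.040 to 0.398 only. These are descriptions over 9 group means, and no shared function is read from them.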

How the data were processed

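The deposited log2 expression values of 23 Affymetrix arrays, 34760 probe sets each, were made by the authors with RMA (background subtraction, quantile normalization and probe summary), per the submitters' processing notes, with no version given. They end at 3, where 2952 to 3379 probe sets per array lie. RMA makes 1 probe set comparable between arrays, not different probe sets, and compresses changes of dim genes. The number of arrays limits the precision. Of the probe sets, 21640 had 1 gene symbol, 1321 several and 11799 none listed, and 21553 of the first matched RefSeq GRCm38.p6. The highest-mean probe set was kept for 954 genes with several, leaving 19937 genes. Group means were fitted with limma 3.58.1 in R 4.3.3 (lmFit, eBayes with trend, Benjamini-Hochberg over all genes, threshold 0.05). The code was tested on simulated data. The members and gene lists were chosen with earlier results of these data known; named genes are the members, the 4 genes most like Mecom, Prdm16, Hoxb4 and Hoxb5, up to 4 members of each list past the threshold, and Cebpa. Genes compared with the members' values for context, such as Hoxa9, Hoxa10, Gata2, Mpo and Kit, were chosen after values were seen. Alternatives were array weights, the compared groups alone, untransplanted marrow alone, the replicate block and no trend in the prior variance. Further ones were a second quantile normalization, mean of probe sets, a level filter, equal weight per group and leaving out each array or mouse. Replicates 1 and 2 of MLL-AF9 CMPs and KSLs are the same mice per the labels, and their deviations correlated (0.45 and 0.26); other same-numbered samples share a number only.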

Additional observations from a re-analysis of the deposited data

Results flagged for a closer look

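The check covered 32 pairs of a gene and a group of at least 4 arrays, with control L-GMPs and the non-leukaemic MLL-AF9 KO cells each pooled. Hoxb5 in control CMPs had 1 array apart from the rest: replicate 3 read 3.87, against 4.47 to 4.55 on the other 3, a gap of 0.88 of the whole range. Chance alone gives such a gap in about 1 of 20 groups, and 1 among 32 is no more than that rate.

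On its main probe set Mecom differed in opposite directions between KO and control in the 2 settings. It was higher in KO than in control L-GMPs by 4.46 and lower in KO than in control CMPs (-0.61), with no overlap of arrays in either. On its other probe set the differences were 2.06 with no overlap in L-GMPs and -0.15 with overlap in CMPs. The difference between the settings was not tested, because the choice of genes used the first of these contrasts.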

How the results depend on the processing

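The SE of Mecom in the fit to all arrays rests on the mice without leukaemia, and the calls for Mecom move with the arrays fitted. Without any 1 array, the KO minus control L-GMP difference ran between 4.08 and 4.81 for Mecom, 1.58 and 1.88 for Hoxb2, 1.31 and 1.57 for Hoxb4, and 2.14 and 2.49 for Hoxb5; the sign was fixed, since the groups do not overlap. With the mean of both probe sets Mecom was higher by 3.26 there and by 3.40 in KO L-GMPs against KO CMPs. Over the differences without a test, 470 alternatives moved by less than the spread and 2 by more. Over the tested changes 516 kept their direction and side of the threshold, 7 passed it, and 38 changed sign, none past the threshold. The causes were not tested.

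In KO CMPs set against control CMPs, and in GMPs set against control CMPs, members called were 1 each (Mecom) with the compared groups alone, or with untransplanted marrow alone, an alternative added after seeing the data. Members called for MLL-AF9 KO CMPs against KO CMPs were 1 (Mecom) without all arrays of the mouse of replicate 1, and 0 to 1 without any 1 array. Members without overlap for control L-GMPs against non-leukaemic cells were 1 without that mouse. They were 2 to 4 for control L-GMPs against GMPs without any 1 array.

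All genes called were 979 for KO against control CMPs, 3762 with array weights, 3220 with the compared groups alone, 3425 with untransplanted marrow alone and 530 to 817 without any 1 array. For GMPs against CMPs they were 209, then 1257, 643, 1140 and 70 to 196. For MLL-AF9 CMPs against KSLs they were 662, 3 with array weights, 0 with the compared groups alone (limma, in which 0 of the 8 members was called in any fit), 0 with the replicate block on the 4 arrays of 2 mice, and 355 to 2850 without any 1 array. For MLL-AF9 KO CMPs against KO CMPs they were 972, 335 with array weights, 443 with the compared groups alone, 612 with the replicate block, 2035 without the mouse of replicate 3, 1617 without that of replicate 2 and 490 to 2035 without any 1 array. For secondary against primary control L-GMPs they were 1536, 151, 0 and 366 to 3074.

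Sign changes were as follows. With the replicate block, where mice are shared, CMPs minus KSLs was -0.58 for Mecom, -0.06 for Hoxb2, -0.18 for Hoxb4 and -0.03 for Hoxb6, the same on the 4 arrays of 2 mice alone; the block called no other member, and elsewhere same-numbered samples share only a number. With array weights Mecom was -0.29 and Hoxb2 -0.02. Without any 1 array, CMPs minus KSLs ran between -1.73 and 2.44 for Mecom, -0.06 and 0.09 for Hoxb2, -0.18 and 0.45 for Hoxb4, -0.03 and 0.22 for Hoxb6, and -0.50 and 0.44 for Prdm16. GMPs minus CMPs ran between -0.24 and 0.01 for Hoxb5, -0.10 and 0.05 for Hoxb7, -0.18 and 0.02 for Prdm16, and -0.04 and 0.12 for Hoxb3. MLL-AF9 KO CMPs minus KO CMPs ran between -0.10 and 0.44 for Hoxb5, -0.54 and 0.09 for Hoxb4, and -0.30 and 0 for Hoxb7. Without the mouse of replicate 1 it was -0.10 for Hoxb5, and without that of replicate 2 it was 0.09 for Hoxb4 and 0 for Hoxb7. Secondary minus primary control L-GMPs ran between -0.28 and 0.11 for Hoxb2, -0.49 and 0.56 for Hoxb5, -0.50 and 0.26 for Hoxb7, and -0.46 and 0.31 for Hoxb6.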
